A study of Mus musculus with 12 samples.

Results

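Ch25h and 7 other genes of cholesterol metabolism (Hmgcs1, Sqle, Insig1, Idi1, Fdps, Cyp51 and Abca1) were read across 3 lines of mouse embryonic fibroblasts (MEFs) with and without TNF. The 8 genes were given by name, and each was read on the probe that carried its symbol and had the highest mean signal over the 12 arrays. Of the 8, 7 passed the filter on dim probes, which asked for a signal above background on the 2 arrays of some group, and were tested among the 10031 features that did (9251 named genes). Abca1 did not pass. Ch25h was selected on its known rise after TNF in WT cells, so that its values in that comparison are a description and carry no test. The same holds for its untreated comparisons with WT, which use the same untreated WT arrays. The SREBP2 targets and Abca1 were named for comparison with it.

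The cells were C57BL/6 MEFs, taken from mid-gestation embryos and immortalized by serial passage. They were WT, Rela-/-Nfkb2-/- (no RelA and no p100/p52) or Rela-/-Relb-/-Rel-/- (no RelA, RelB or cRel), and received either no TNF or 10 ng/ml of it, for 6 h. RNA was hybridized to 1-colour Illumina MouseRef-8 v2.0 BeadChips, with 2 arrays in each of the 6 groups. The question behind the design was which TNF-induced genes need RelA, and which respond where RelB:p50 is the NFκB dimer that TNF activates. Nothing in the labels says whether 2 arrays of a group came from separate cultures, or whether a genotype was more than 1 immortalized line, so the p-values measure the spread between these arrays, and genotype and line cannot be told apart. In bulk RNA, fewer cells of a type and less RNA per cell cannot be told apart either.

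Ch25h encodes an enzyme that hydroxylates the side chain of cholesterol, and its product is an oxysterol released by immune cells in inflammation. SREBP2, the transcription factor of cholesterol synthesis, is held in the endoplasmic reticulum by SCAP and the INSIG proteins when sterols are plentiful, and this oxysterol binds INSIG. Freed SREBP2 drives the genes of the synthesis pathway and Insig1 itself. Oxysterols also activate the LXR nuclear receptors, whose targets include Abca1, the cholesterol exporter. Hmgcs1, Idi1, Fdps, Sqle and Cyp51 thus mark the synthesis arm, Insig1 its brake, and Abca1 the efflux arm.

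The start regions of the genes are shown for Ch25h, the member that moved with TNF, for Hmgcs1, whose window matched the sterol regulatory element core searched, and for Cyp51, the target with the largest difference between lines. RefSeq promoter windows on GRCm38.p6 were found for 6 of the 8 genes, and not for Sqle and Fdps. The 250 bases before the start site are given 5′ to 3′ on the strand of the gene, which is chr19:34475149-34475398 (minus strand) for Ch25h, chr13:119690101-119690350 (plus strand) for Hmgcs1 and chr5:4104698-4104947 (minus strand) for Cyp51, with matches to the motifs searched in capitals.
Ch25h: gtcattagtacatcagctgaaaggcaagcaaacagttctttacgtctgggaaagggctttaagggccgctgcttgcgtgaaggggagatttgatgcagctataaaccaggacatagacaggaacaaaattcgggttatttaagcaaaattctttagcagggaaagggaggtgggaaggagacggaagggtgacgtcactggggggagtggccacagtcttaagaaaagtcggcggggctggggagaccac
Hmgcs1: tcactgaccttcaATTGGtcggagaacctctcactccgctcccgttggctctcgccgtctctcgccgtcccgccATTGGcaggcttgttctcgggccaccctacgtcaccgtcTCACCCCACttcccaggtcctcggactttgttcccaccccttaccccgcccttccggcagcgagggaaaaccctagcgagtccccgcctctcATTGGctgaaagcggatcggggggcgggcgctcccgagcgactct
Cyp51: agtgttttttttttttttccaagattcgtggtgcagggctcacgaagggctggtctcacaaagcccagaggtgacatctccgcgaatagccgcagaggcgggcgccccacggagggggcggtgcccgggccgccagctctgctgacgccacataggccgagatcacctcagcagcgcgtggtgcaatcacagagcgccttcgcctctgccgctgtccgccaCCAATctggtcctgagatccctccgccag
Motifs were searched on both strands of the full windows of 300 bases, which also hold 50 bases after the start site. The sterol regulatory element core TCACNCCAC stood in the window of Hmgcs1, centred 133 bases before the start, and in 1.24% of all 32851 windows. The CCAAT box (CCAAT) stood in the windows of Hmgcs1 (4 matches), Idi1 (2), Insig1 (1) and Cyp51 (1), and in 37.4% of all windows. Neither the κB consensus, present in 8.46% of all windows, nor the LXR element, present in 0.0152%, matched the window of any of the 6 members. The LXR letters searched stood in 5 of all 32851 windows, too few for their absence to say anything about the members. These are matches of letters in a short window. They say nothing about distal sites, or about sterol regulatory, κB or LXR elements of other letters.

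The labelled cell type was checked first. Of 9 fibroblast markers on the array, Col1a1, Col1a2, Col3a1, Vim, Pdgfra and Dcn were above background on all 12 arrays. Thy1 was above background on the 4 Rela-/-Nfkb2-/- arrays alone, Pdgfrb on 1 of 4 Rela-/-Relb-/-Rel-/- arrays and Lum on none of them. The macrophage markers Ptprc, Adgre1 and Itgam were on 0 of 12 arrays, Lyz2 on 1 and Cd14 on 12. Of the epithelial markers, Krt8 was above background on the 4 Rela-/-Relb-/-Rel-/- arrays alone, Cdh1 on 12 arrays, Krt19 on 10 (2 of 4 in WT and all 8 mutant arrays) and Krt18 on 0. Of the endothelial markers, Pecam1 and Cdh5 were on 0 arrays, Tek on 10 and Kdr on 12. Levels of these markers thus differed between the lines, and their part in the results below was not tested. The targeted genes do not check the genotypes, since the deleted part is not known here: Rela was above background on all arrays, between 12.60 and 13.22 in WT and between 10.05 and 10.80 in the mutant lines (log2 signal), Relb was above background on 1 of 4 Rela-/-Relb-/-Rel-/- arrays and Rel on 0 of 12. Nfkb2 was above background on all 12, between 8.64 and 10.01 in WT, between 7.23 and 8.83 in Rela-/-Nfkb2-/- and between 6.97 and 8.57 in Rela-/-Relb-/-Rel-/- cells.

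Ch25h was 14.3-fold higher after TNF in WT, rose 5.34-fold in Rela-/-Nfkb2-/- cells, and stood higher in the untreated mutant lines than in untreated WT. All levels here are log2 signals after background correction and quantile normalization, on which 1 unit is a doubling, and levels of different genes cannot be compared, since probes differ. In WT, Ch25h had signals of 6.51 and 5.46 untreated, the second of which was not above background, and 9.96 and 9.69 after TNF. In Rela-/-Nfkb2-/- cells it had 7.91 and 7.65 untreated and 10.11 and 10.29 after TNF. In Rela-/-Relb-/-Rel-/- cells it had 7.23 and 8.04 untreated and 9.00 and 9.34 after TNF. In every line both TNF arrays lay above both untreated arrays. By group mean the order was Rela-/-Nfkb2-/- with TNF, WT with TNF, Rela-/-Relb-/-Rel-/- with TNF, then untreated Rela-/-Nfkb2-/-, Rela-/-Relb-/-Rel-/- and WT. The arrays of the untreated mutant lines overlapped, whereas no other neighbours in this order did.

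**Figure D1:**
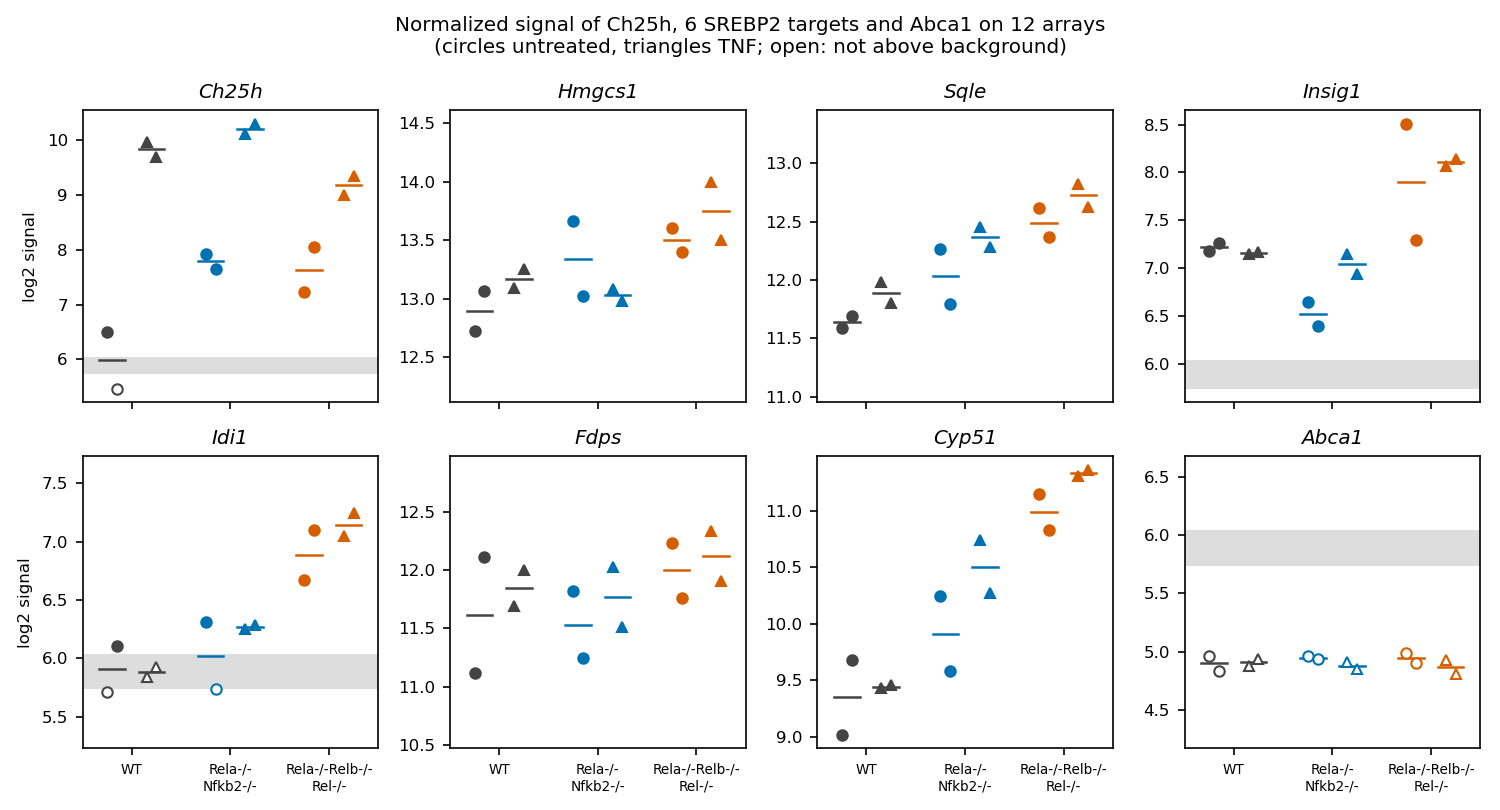
Normalized log2 signal (y axis, whose range differs between panels) of the 8 genes on each of 12 arrays, by line (x axis), with circles for untreated and triangles for TNF-treated cells and bars for the mean of 2 arrays. Open symbols were not above background, and the grey band, drawn where a gene came near it, spans the lowest signal above background on each array. Ch25h moved with TNF, Idi1 and Cyp51 stood highest in Rela-/-Relb-/-Rel-/- cells, and Abca1 lay between 4.81 and 4.99 throughout.

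The rise of Ch25h was 3.84 ± 0.36 (log2 difference ± SE, n = 2 arrays a group) in WT, or 14.3-fold, the 8th largest rise of the 10031 features. In this comparison 1.2% of all features passed the threshold, an adjusted p under 0.05. In Rela-/-Nfkb2-/- cells the rise was 2.42 ± 0.36, or 5.34-fold (95% interval of the log2 difference 1.60 to 3.23, adjusted p = 0.00219 by limma), where 19.7% of features passed in either direction and 8.03% rose. In Rela-/-Relb-/-Rel-/- cells the difference was 1.53 ± 0.36, which missed the threshold (adjusted p = 0.0707) and passed it with the replicate number as a block (adjusted p = 0.0144), against 2.18% of features that passed. Thus the call in the line that lacks all transcription-activating subunits depends on whether arrays of the same number are treated as pairs. The differences between the lines in this response were 1.42 ± 0.51 (WT minus Rela-/-Nfkb2-/-), 2.30 ± 0.51 (WT minus Rela-/-Relb-/-Rel-/-) and 0.88 ± 0.51 (Rela-/-Nfkb2-/- minus Rela-/-Relb-/-Rel-/-). The first 2 rest on the WT response and were not tested. The third did not pass (adjusted p = 0.373, 95% interval -0.27 to 2.04), so that a response equal in both mutant lines and one up to 2.04 larger in Rela-/-Nfkb2-/- cells both lie within its error.

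Without TNF, Ch25h was higher in both mutant lines than in WT. Untreated Rela-/-Nfkb2-/- cells stood 1.80 ± 0.36 above untreated WT, a comparison in which 20.5% of all features passed and 9.85% were higher. Untreated Rela-/-Relb-/-Rel-/- cells stood 1.65 ± 0.36 above WT, where 37.7% passed and 17.2% were higher. The mutant lines differed by -0.15 ± 0.36 (Rela-/-Relb-/-Rel-/- minus Rela-/-Nfkb2-/-, adjusted p = 0.803, 95% interval -0.96 to 0.67), in a comparison in which 33.6% of features passed. The comparisons with WT share the untreated WT arrays with the WT response for which Ch25h was chosen, a choice that favours low signals on them. They are thus a description and carry no test. The untreated WT arrays were 1.04 apart. Without untreated WT replicate 2, the array on which Ch25h was not above background, the differences were 1.28 and 1.13. The WT response was then 3.32. Without untreated Rela-/-Relb-/-Rel-/- replicate 2 the difference of that line from WT was 1.24.

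No change of an SREBP2 target passed the test after TNF. Ch25h differed there by 3.84 (WT, not tested), 2.42 (Rela-/-Nfkb2-/-, passed) and 1.53 (Rela-/-Relb-/-Rel-/-, not passed). None of the 6 targets passed in any of the 3 lines, beside 1.2%, 19.7% and 2.18% of all features. Among 6 genes such shares give few calls or none, so that the count is no result about the targets. The 18 differences lay between -0.31 and 0.59. The 95% interval of each held 0. The outermost limits were -0.88 (Hmgcs1) and 1.26 (Insig1), both in Rela-/-Nfkb2-/- cells. Single intervals were narrower, such as -0.18 to 0.69 for Sqle in WT, so that the changes left within error differ by gene and line. The median difference of the 6 was 0.16 (WT), 0.29 (Rela-/-Nfkb2-/-) and 0.24 (Rela-/-Relb-/-Rel-/-), beside medians of all features of -0.04, 0.00029 and -0.01. At an unadjusted p under 0.05, too, 0 of the 6 passed in any line, by limma or by the other test run. These values are those of the brightest probe of each gene. A dimmer Sqle probe gave 0.73 ± 0.29 in Rela-/-Nfkb2-/- cells, and a dimmer Insig1 probe -0.49 ± 0.82 in WT. Both lie outside the range above, other differences of dimmer kept probes lay within it, and none of these was tested. With the replicate number as a block 1 target passed, Cyp51 in Rela-/-Nfkb2-/- cells (0.59, adjusted p = 0.0494 against 0.185 without the block). None of the differences between lines in the TNF response passed for any target, in comparisons where 4.09% (WT minus Rela-/-Nfkb2-/-), 0.847% (WT minus Rela-/-Relb-/-Rel-/-) and 4.97% (Rela-/-Nfkb2-/- minus Rela-/-Relb-/-Rel-/-) of all features did. At such shares this count, too, is no result about the targets.

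**Figure D2:**
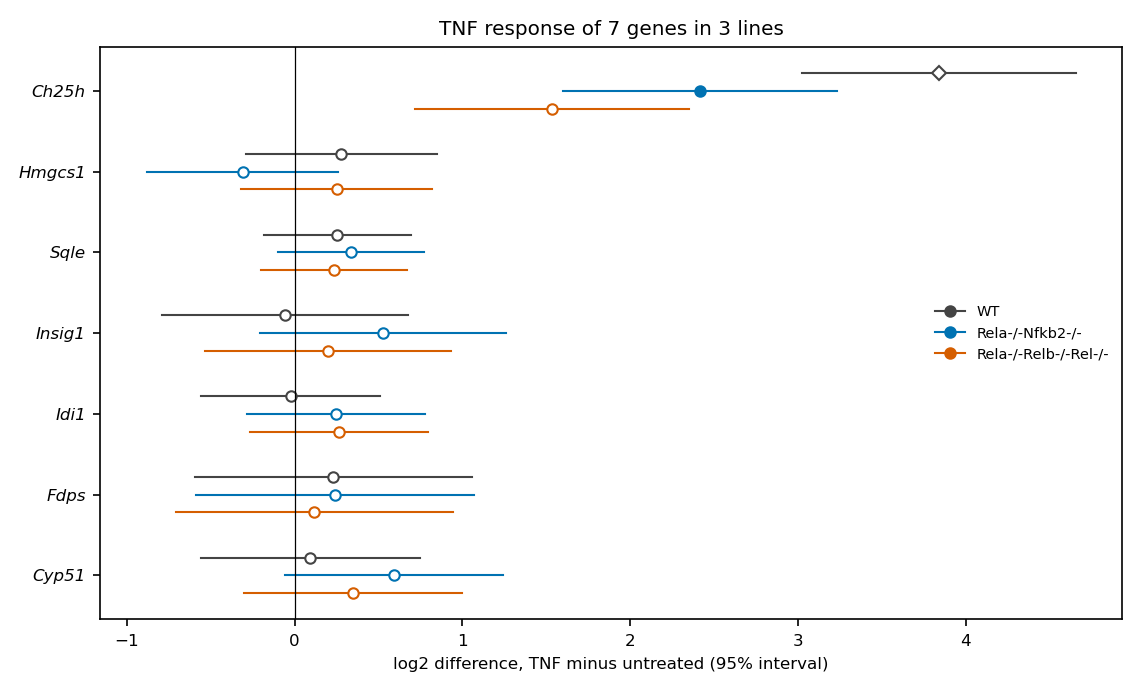
TNF response (x axis, log2 difference of TNF-treated minus untreated cells, with 95% intervals) of Ch25h and the 6 SREBP2 targets in 3 lines. Filled circles passed an adjusted p under 0.05, open circles did not, and the diamond was not tested. Ch25h differed by 3.84, 2.42 and 1.53, while every target, read on its brightest probe, lay between -0.31 and 0.59.

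Between untreated lines the targets did differ. In Rela-/-Relb-/-Rel-/- cells 3 of the 6 (Sqle, Idi1 and Cyp51) were higher than in WT, where 17.2% of all features were, and all 6 differences were positive, with a median of 0.77 beside -0.02 for all features. Against Rela-/-Nfkb2-/- cells 3 of the 6 (Insig1, Idi1 and Cyp51) were higher, where 15.8% of all features were, and again all 6 differences were positive, with a median of 0.66. None passed between untreated Rela-/-Nfkb2-/- cells and WT, beside 20.5% of all features, which for 6 genes is no result about the targets. In that comparison 4 of 6 differences were positive and the median was 0.25. The arrays of each target follow, in the order of the pathway.

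Hmgcs1 encodes the cytosolic HMG-CoA synthase, an early enzyme of the mevalonate pathway. It had signals of 12.72 and 13.06 in untreated WT, 13.66 and 13.02 in untreated Rela-/-Nfkb2-/- and 13.61 and 13.40 in untreated Rela-/-Relb-/-Rel-/- cells. TNF-treated arrays read 13.09 and 13.25 (WT), 13.08 and 12.98 (Rela-/-Nfkb2-/-) and 14.00 and 13.50 (Rela-/-Relb-/-Rel-/-). The untreated Rela-/-Relb-/-Rel-/- arrays lay above both untreated WT arrays, by 0.61 ± 0.25 in the mean, which did not pass (adjusted p = 0.0897). No difference of Hmgcs1 passed in the main fit. With the compared groups fitted alone, that between untreated Rela-/-Relb-/-Rel-/- cells and WT did (0.61, adjusted p = 0.0465 by limma).

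Idi1, the isomerase that interconverts the building blocks of isoprenoids, was near background: its probe was above it on 8 of 12 arrays. In untreated cells it had 5.72 and 6.10 in WT (1 of 2 above background), 6.31 and 5.74 in Rela-/-Nfkb2-/- (1 of 2) and 6.67 and 7.10 in Rela-/-Relb-/-Rel-/- cells. TNF-treated arrays read 5.84 and 5.93 (WT, 0 of 2), 6.26 and 6.29 (Rela-/-Nfkb2-/-) and 7.05 and 7.24 (Rela-/-Relb-/-Rel-/-). All 4 Rela-/-Relb-/-Rel-/- arrays thus lay above all 8 others. Untreated, that line was 0.97 ± 0.23 above WT (adjusted p = 0.00995) and 0.86 ± 0.23 above Rela-/-Nfkb2-/- (adjusted p = 0.0201). Without untreated WT replicate 1 or without untreated Rela-/-Relb-/-Rel-/- replicate 2 the first was 0.78 and 0.76 and missed the threshold (adjusted p = 0.0824 and 0.0817), and the second missed it without untreated Rela-/-Nfkb2-/- replicate 2 (0.57, adjusted p = 0.112) or untreated Rela-/-Relb-/-Rel-/- replicate 2 (0.64, adjusted p = 0.14).

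Fdps, farnesyl diphosphate synthase, varied as much within groups as between them. It had 11.11 and 12.11 in untreated WT, 11.82 and 11.24 in untreated Rela-/-Nfkb2-/- and 12.23 and 11.76 in untreated Rela-/-Relb-/-Rel-/- cells. TNF-treated arrays read 11.69 and 12.00 (WT), 12.03 and 11.51 (Rela-/-Nfkb2-/-) and 12.33 and 11.90 (Rela-/-Relb-/-Rel-/-). The lines overlapped in untreated cells and after TNF, and the difference between untreated Rela-/-Relb-/-Rel-/- cells and WT was 0.38 ± 0.37 (adjusted p = 0.463).

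Sqle encodes squalene epoxidase, which catalyses the first oxygen-requiring step of sterol synthesis. It had 11.59 and 11.69 in untreated WT, 12.27 and 11.79 in untreated Rela-/-Nfkb2-/- and 12.62 and 12.37 in untreated Rela-/-Relb-/-Rel-/- cells. TNF-treated arrays read 11.98 and 11.80 (WT), 12.45 and 12.28 (Rela-/-Nfkb2-/-) and 12.82 and 12.63 (Rela-/-Relb-/-Rel-/-). The untreated lines did not overlap, with WT lowest and Rela-/-Relb-/-Rel-/- highest. The latter was 0.85 ± 0.19 above WT (adjusted p = 0.00734), a call that missed the threshold without untreated WT replicate 1 (0.80, adjusted p = 0.0513), without untreated Rela-/-Relb-/-Rel-/- replicate 1 (0.73, adjusted p = 0.0563) and when arrays were scaled to their medians (0.82, adjusted p = 0.138). It was 0.46 above Rela-/-Nfkb2-/- cells, which passed with the replicate block alone (adjusted p = 0.0484 against 0.102). A dimmer Sqle probe gave 0.97 against WT.

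Cyp51, lanosterol 14α-demethylase, differed most between the lines. It had 9.01 and 9.68 in untreated WT, 10.24 and 9.58 in untreated Rela-/-Nfkb2-/- and 11.14 and 10.83 in untreated Rela-/-Relb-/-Rel-/- cells. TNF-treated arrays read 9.43 and 9.46 (WT), 10.74 and 10.27 (Rela-/-Nfkb2-/-) and 11.31 and 11.36 (Rela-/-Relb-/-Rel-/-). All 4 Rela-/-Relb-/-Rel-/- arrays lay above all 8 others, and after TNF the 3 lines did not overlap. Untreated, Rela-/-Relb-/-Rel-/- cells stood 1.64 ± 0.29 above WT (3.12-fold, adjusted p = 0.00183) and 1.08 ± 0.29 above Rela-/-Nfkb2-/- cells (adjusted p = 0.0181). The second call missed the threshold without untreated Rela-/-Nfkb2-/- replicate 2 (0.74, adjusted p = 0.102), without untreated Rela-/-Relb-/-Rel-/- replicate 1 (0.92, adjusted p = 0.108) and with median scaling (0.97, adjusted p = 0.0709).

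Insig1, the brake on SREBP2 and itself a target, was measured by 4 probes, of which 3 were kept. The brightest had 7.18 and 7.27 in untreated WT, 6.65 and 6.39 in untreated Rela-/-Nfkb2-/- and 8.51 and 7.30 in untreated Rela-/-Relb-/-Rel-/- cells. TNF-treated arrays read 7.15 and 7.17 (WT), 7.15 and 6.94 (Rela-/-Nfkb2-/-) and 8.07 and 8.14 (Rela-/-Relb-/-Rel-/-). The untreated lines did not overlap, with Rela-/-Nfkb2-/- lowest, although the untreated Rela-/-Relb-/-Rel-/- arrays were 1.21 apart. That line was 1.39 ± 0.32 above Rela-/-Nfkb2-/- cells (adjusted p = 0.00958), and the other kept probes gave 1.51 and 1.37. It was 0.68 ± 0.32 above WT (adjusted p = 0.132), and this passed when the probes were averaged (1.13, adjusted p = 0.0124). Without untreated Rela-/-Relb-/-Rel-/- replicate 1 the difference was 0.08 from WT (adjusted p = 0.804) and 0.78 from Rela-/-Nfkb2-/- cells, which still passed (adjusted p = 0.0229). Without replicate 2 of that group it was 1.29 (adjusted p = 0.00191) and 1.99 (adjusted p = 2.29e-04). Against WT, the probes disagreed on untreated Rela-/-Nfkb2-/- cells, at -0.70, 0.33 and -0.49.

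**Figure D3:**
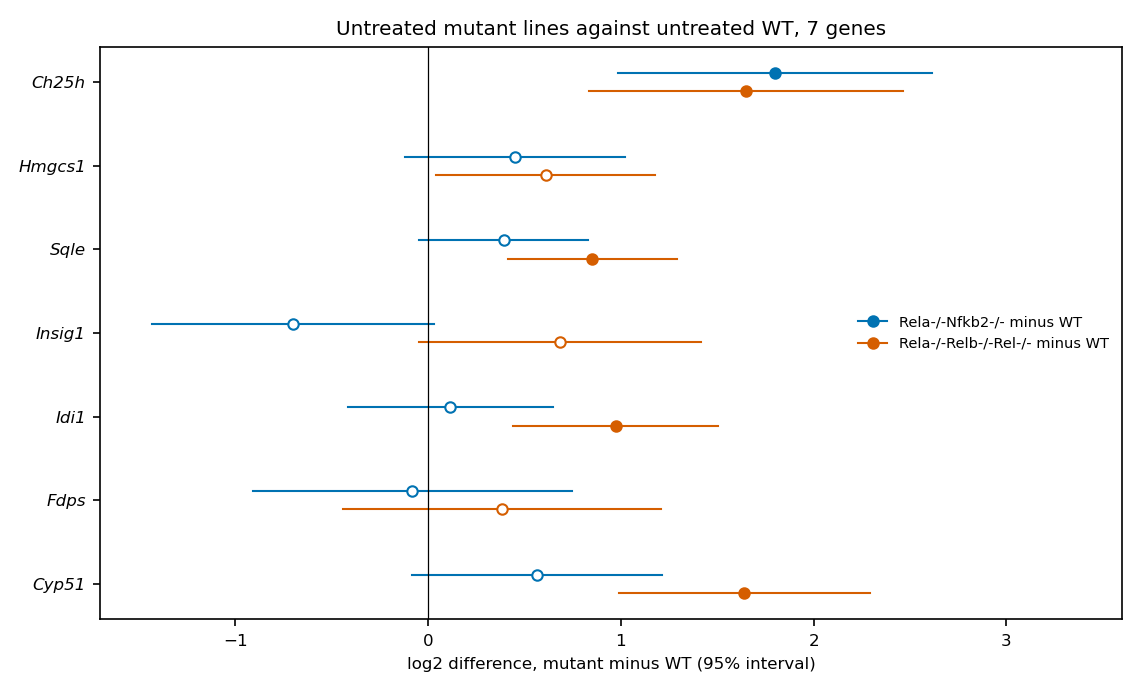
Difference of each untreated mutant line from untreated WT (x axis, log2 difference with 95% intervals) for Ch25h and the 6 SREBP2 targets, filled where the adjusted p was under 0.05. Ch25h was higher in both lines (1.80 and 1.65), a description whose filled symbols are not read as a test. The targets passed in Rela-/-Relb-/-Rel-/- cells alone, Sqle at 0.85, Idi1 at 0.97 and Cyp51 at 1.64.

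The targets also differed between the 2 arrays of a group. In untreated WT 0 of 6 were higher on replicate 1 than on replicate 2, although 52.9% of all features were. In untreated Rela-/-Nfkb2-/- cells 6 of 6 were higher on replicate 1, beside 61.7% of all features, and in untreated Rela-/-Relb-/-Rel-/- cells 5 of 6, beside 62.7%. After TNF 1 (WT), 5 (Rela-/-Nfkb2-/-) and 3 (Rela-/-Relb-/-Rel-/-) of the 6 were higher there, beside 49.7%, 61.7% and 61.5% of all features. The median gap of the 6 (replicate 1 minus replicate 2) was -0.36 in untreated WT, 0.58 in untreated Rela-/-Nfkb2-/- and 0.28 in untreated Rela-/-Relb-/-Rel-/- cells. After TNF it was -0.06, 0.19 and 0.07. The gaps of the untreated groups were thus about as large as some of the line differences, and the labels do not give their source. Over all features the SD of that gap was 0.27 (untreated) and 0.30 (TNF) for WT, but 0.46 to 0.67 for the mutants.

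Abca1, the efflux gene, was not above background on any array. Its signals ran from 4.84 to 4.96 (WT), from 4.85 to 4.96 (Rela-/-Nfkb2-/-) and from 4.81 to 4.99 (Rela-/-Relb-/-Rel-/-), all below 5.74, the lowest signal above background on any array. Therefore these arrays give no ratio for it with TNF or between lines, and 1 probe cannot show that the transcript was absent.

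Around these genes, 65 genes of 6 sterol and lipid lists were drawn up, of which 54 were on the array here and 48 were tested. In WT, none of the listed genes tested, Ch25h left out, passed after TNF. Of all features 1.2% did, so that this count is no result about the lists. Of the oxysterol list, which had 5 tested members other than Ch25h, 3 were lower after TNF in Rela-/-Nfkb2-/- cells and 0 higher, where 11.6% of all features were lower, and the list median was -1.18 beside 0.00029 for all features. The other 2 did not pass, namely the oxysterol-binding proteins Osbpl1a (-0.62, adjusted p = 0.282), not above background after TNF, and Osbpl8 (0.47, adjusted p = 0.755). Cyp7b1, a hydroxylase that acts on side-chain oxysterols such as the product of Ch25h, had 11.87 and 11.36 in untreated and 8.54 and 8.28 in TNF-treated Rela-/-Nfkb2-/- cells and fell by 3.21 ± 0.19 (adjusted p = 2.96e-05). None of the 8 arrays of the other lines had it above background, so that untreated Rela-/-Nfkb2-/- cells held at least 53.8-fold more than WT and at least 52.2-fold more than Rela-/-Relb-/-Rel-/- cells. The gene passed the filter through the Rela-/-Nfkb2-/- arrays alone, and these bounds are a description. Such a bound sets the bright group's mean against, on each dim array, the lowest signal above background there.

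Cyp27a1, the sterol hydroxylase of mitochondria, had 8.07 and 7.40 in untreated Rela-/-Nfkb2-/- cells and dropped out of the measurable range after TNF, a fall of at least 3.35-fold (adjusted p = 0.00166). Hsd3b7, a further enzyme of oxysterol and bile acid metabolism, fell from 11.89 and 11.30 to 10.34 and 10.48 (-1.18 ± 0.27, adjusted p = 0.0154). In WT both genes also had lower means after TNF, but neither passed. Ch25h thus rose in the line and the treatment in which Cyp7b1, Cyp27a1 and Hsd3b7 fell. Rela-/-Nfkb2-/- was also the line with the most features called for TNF, 1973 of 10031, beside 120 (WT) and 219 (Rela-/-Relb-/-Rel-/-), or 3324, 290 and 663 with the replicate block.

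**Figure D4:**
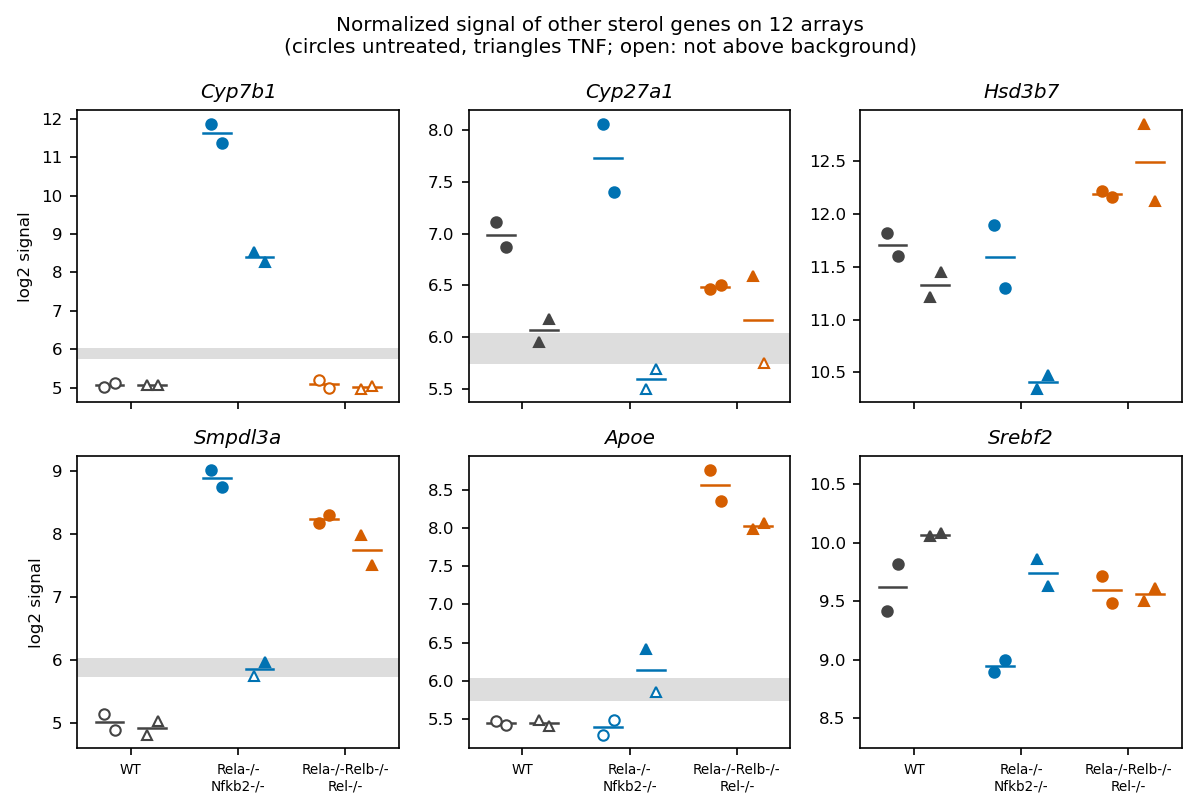
Normalized log2 signal (y axis, whose range differs between panels) of 6 other sterol genes on the 12 arrays by line (x axis), drawn with the symbols, bars and grey band used for the 8 genes above. Cyp7b1 was above background in Rela-/-Nfkb2-/- cells alone and was lower there after TNF, as were Cyp27a1, Hsd3b7 and Smpdl3a, while Srebf2 was higher.

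Of the SREBP machinery, Srebf2, which encodes SREBP2, rose after TNF in Rela-/-Nfkb2-/- cells from 8.90 and 8.99 to 9.86 and 9.63 (0.80 ± 0.18, adjusted p = 0.0145). This was the single call among 7 tested members, where 19.7% of all features passed, so that the count is no result about the list. Srebf2 started in that line 0.67 below untreated WT (adjusted p = 0.0265). Insig2, the second INSIG gene, had 8.86 and 10.84 in untreated Rela-/-Nfkb2-/- cells beside 12.58 and 12.54 in WT (-2.72 ± 0.51, adjusted p = 0.00523), with the mutant arrays far apart. Without untreated Rela-/-Nfkb2-/- replicate 1 that difference was -1.72 and still passed (adjusted p = 0.00293). In untreated Rela-/-Relb-/-Rel-/- cells 1 of the 7 was higher than in WT, Srebf1 (0.74, adjusted p = 0.00626), and 1 lower, Mbtps1, which encodes the protease that first cleaves SREBPs (-0.81, adjusted p = 0.00368). Of all features 17.2% were higher and 20.5% lower in that comparison.

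The wider cholesterol synthesis list holds 5 of the members, so that its counts partly repeat theirs. After TNF 0 of 16 tested members passed in any line, or, with the replicate block, 1 in each mutant line, Cyp51 (above) and Hsd17b7 in Rela-/-Relb-/-Rel-/- cells (0.72, adjusted p = 0.0482 with the block). Of all features 1.2% (WT), 19.7% (Rela-/-Nfkb2-/-) and 2.18% (Rela-/-Relb-/-Rel-/-) passed after TNF without the block. For WT and Rela-/-Relb-/-Rel-/- cells the count is thus no result about the list. The 11 tested genes that are no members had median TNF differences of -0.041 (WT), -0.0058 (Rela-/-Nfkb2-/-) and -0.045 (Rela-/-Relb-/-Rel-/-). In untreated Rela-/-Relb-/-Rel-/- cells 7 of 16 were higher than in WT and 0 lower, beside 17.2% and 20.5% of all features, and the list median was 0.55 beside -0.02. Beside Sqle, Idi1 and Cyp51 these were Lss, lanosterol synthase (1.45, adjusted p = 0.00628), Msmo1, the sterol C4-methyl oxidase (1.38, adjusted p = 0.0058), Hsd17b7 (0.83, adjusted p = 0.0142) and Tm7sf2 (0.62, adjusted p = 0.0247). Without the 5 members among them, 4 of 11 were higher and the median was 0.42. In untreated Rela-/-Nfkb2-/- cells 1 of 16 was higher than in WT, beside 9.85% of all features. This was Hsd17b7 (0.78, adjusted p = 0.031), which missed the threshold without untreated Rela-/-Nfkb2-/- replicate 1 (0.47, adjusted p = 0.15). Between the untreated mutant lines 4 of 16 were higher in Rela-/-Relb-/-Rel-/- cells and 0 lower, beside 15.8% and 17.8% of all features. Without the members 2 of 11 were higher there, near the share of all features, and the median was 0.22. With the replicate block 6 of 16 were higher, Sqle and Lss (0.89, adjusted p = 0.0216 with the block against 0.061) being the added ones. The block raised the calls over all features from 3367 to 3895.

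Of the 5 tested genes of cholesterol uptake and transport, Stard4, a carrier of cholesterol within the cell, was lower in untreated Rela-/-Nfkb2-/- (-0.61, adjusted p = 0.0448, or -0.40 and 0.203 without replicate 2 of that group) and higher in untreated Rela-/-Relb-/-Rel-/- cells (0.56, adjusted p = 0.0405) than in WT. Vldlr, a lipoprotein receptor, was lower in the latter (-0.86, adjusted p = 0.00446). None of the 5 passed after TNF in any line, beside 1.2% (WT), 19.7% (Rela-/-Nfkb2-/-) and 2.18% (Rela-/-Relb-/-Rel-/-) of all features, so that this count is no result about them. Of the LXR and efflux list, which without Abca1 had 6 tested members, 4 were called higher and 2 lower in untreated Rela-/-Relb-/-Rel-/- cells than in WT. Of the 4, Apoe, Smpdl3a and Nr1h3 were at background in WT and passed the filter through mutant arrays alone, so that this count is no result about the list. Apoe, an apolipoprotein and LXR target, had 8.77 and 8.36 there and lay at background in WT (a difference of at least 6.47-fold). For Smpdl3a, also an LXR target, that bound was 5.15-fold. The LXR partner Rxra was lower (-1.29, adjusted p = 0.00257). Smpdl3a was at least 8.04-fold higher than WT in untreated Rela-/-Nfkb2-/- cells too, and after TNF it fell there from 9.01 and 8.74 to 5.75 and 5.97, with 1 of these 2 above background (-3.02 ± 0.21, adjusted p = 4.05e-05). In that same comparison Rxra was lower (-1.29, adjusted p = 0.00631) and Apoe was called higher (adjusted p = 0.0386), although 1 of 2 TNF arrays and neither untreated array measured it, and it missed the threshold without TNF-treated Rela-/-Nfkb2-/- replicate 1 (0.47 against 0.75, adjusted p = 0.241).

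Fatty acid synthesis genes, which answer mainly to SREBP1, were counted apart. After TNF 3 of 8 were lower in Rela-/-Nfkb2-/- cells, where 11.6% of all features were, namely Acss2, which makes acetyl-CoA from acetate (-1.75 ± 0.32, adjusted p = 0.00584), and the desaturases Scd2 (-0.92, adjusted p = 0.0199) and Fads1 (-0.49, adjusted p = 0.0262). None passed in the other lines, where 1.2% (WT) and 2.18% (Rela-/-Relb-/-Rel-/-) of all features did, so that those counts are no result about the list. In untreated Rela-/-Relb-/-Rel-/- cells 4 of 8 were higher than in WT and 1 lower, beside 17.2% and 20.5% of all features, with Fads2 (1.57, adjusted p = 0.00499) and Scd1 (1.34, adjusted p = 0.0178) the largest rises and Acss2 the lower one (-1.96, adjusted p = 0.00116). Between untreated Rela-/-Nfkb2-/- cells and WT none passed without the replicate block, beside 20.5% of all features, and Scd1 did with it (0.73, adjusted p = 0.0336 with the block).

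Over the 12 arrays, the named genes whose signal ran most like that of Ch25h were Mafg (Pearson r = 0.96), Rnu6 (0.96), Gfod1 (0.91), Tfrc (0.90) and Gadd45b (0.89), of which 4 were also among the first 5 by Spearman's rho. No sterol gene was among them. For the centred mean of the 6 targets they were Dusp22 (0.98), Zdhhc16 (0.97), Rtn4ip1 (0.97), Cdc37l1 (0.96) and Serp1 (0.96), 3 of them among the first 5 by rho. The 12 arrays share 3 lines and 1 treatment, so a correlation over them describes groups rather than independent cultures.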

How the data were processed

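The authors deposited 1 table of the series with, for each probe and array, a signal (bead-averaged intensity, not normalized) and a detection p-value from GenomeStudio (version not given in the sources used here). They also deposited quantile-normalized intensities, made by a service company, with array medians of 30.98 to 31.45, some values below 0 and probe ranks equal to those of the signals. The raw signals were used here, and the normalized values as an alternative.

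Signals were background-corrected from the detection p-values, offset by 16, quantile-normalized and log2-transformed (neqc, limma 3.58.1, R 4.3.3). Quantile normalization removes a shift common to most genes, and the offset pulls ratios of dim probes toward 0. Probes with a detection p-value under 0.05 on the 2 arrays of 1 or more groups were kept (13387 of 25697), and the brightest was used for each gene. The platform annotation gave 1 symbol for 23978 probes and none for 1719. Per array 11637 to 12599 probes (45.3% to 49.0%) were above background, with median signals of 94.9 to 141.5. The number of arrays limits the precision.

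All features on all 12 arrays entered 1 linear model with a mean for each group (lmFit, eBayes, 6 residual and 2.92 prior degrees of freedom), with Benjamini-Hochberg adjustment over all features of a comparison. The code was tested on simulated data. The members and lists were chosen with earlier results of these data known. Named were all members, at most 4 called genes of a list and comparison, and the 5 genes most like Ch25h and the targets.

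Whether a replicate number marks a pair was checked. Same-numbered arrays deviated from their group means with a correlation of 0.31 in WT, 0.67 for Rela-/-Nfkb2-/- and 0.70 for Rela-/-Relb-/-Rel-/- cells, of -0.19 to 0.00 between WT and mutant groups, and of 0.62 to 0.85 across the mutant lines. Pairing is thus read from the data and not stated by the labels, and the replicate block is given where it changes a call of a member or a count that is printed. Of the listed genes, 11 were not analysed here and 5 that are no members did not pass the filter. Promoter windows came from RefSeq (GRCm38.p6).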

Additional observations from a re-analysis of the deposited data

Results flagged for a closer look

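No group had the 4 arrays needed to look for an array far from the others. Among the members and listed genes, 4 were called by limma's test of the difference in TNF response between lines. In each of them some compared group was not above background on both of its arrays. Cyp7b1 gave 3.21 ± 0.27 for WT minus Rela-/-Nfkb2-/- and -3.13 ± 0.27 for Rela-/-Nfkb2-/- minus Rela-/-Relb-/-Rel-/- cells (log2). It was at background on all arrays of the WT and Rela-/-Relb-/-Rel-/- lines, so no response could be measured there. Both values thus carry its fall in Rela-/-Nfkb2-/- cells alone, and are a description. The same differences for Smpdl3a were 2.92 ± 0.29, with WT at background and no response measured there, and -2.52 ± 0.29 (adjusted p = 0.00203). For Rela-/-Nfkb2-/- minus Rela-/-Relb-/-Rel-/- cells, Cyp27a1 differed by -1.82 ± 0.42 (adjusted p = 0.0436) and Apoe by 1.28 ± 0.30 (adjusted p = 0.0462). Cyp27a1 was above background on 0 of 2 TNF-treated Rela-/-Nfkb2-/- and 1 of 2 TNF-treated Rela-/-Relb-/-Rel-/- arrays, and Apoe on 1 of 4 Rela-/-Nfkb2-/- arrays, so that neither size was measured on both sides. In these comparisons 4.09% and 4.97% of all features passed. With the replicate number as a block 3 further genes passed, Rxra in WT minus Rela-/-Nfkb2-/- cells (1.19, adjusted p = 0.0163 against 0.0945) and between the mutant lines (-0.92, adjusted p = 0.0348 against 0.167), and between the latter also Hsd3b7 (-1.48, adjusted p = 0.0348 against 0.0627) and Acss2 (-1.69, adjusted p = 0.0181 against 0.0687).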

How the results depend on the processing

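Without background correction the TNF response of Ch25h was 2.94 in WT and, now past the threshold, 1.27 in Rela-/-Relb-/-Rel-/- cells (adjusted p = 0.0377). WT then exceeded the mutants by 0.81 and 1.67. With the authors' normalized values these were 4.48, 1.96 and 2.85. With the replicate number as a block, Ch25h passed after TNF in Rela-/-Relb-/-Rel-/- cells (1.53, adjusted p = 0.0144) and 1 target, Cyp51, in Rela-/-Nfkb2-/- cells. With the block no other tested call of Ch25h changed, and the other counts of targets moved by at most 1. By the methods' t-test, on 2 arrays against 2, Ch25h no longer passed after TNF in Rela-/-Nfkb2-/- cells (2.42, adjusted p = 0.215) or untreated in either mutant line against WT (1.80 and 1.65, adjusted p = 0.305 and 0.239), and 0 targets passed between untreated lines. Over all features it called 0 after TNF in each line, with 1222, 1731 and 800 at an unadjusted p under 0.05. With the compared groups fitted alone 0 targets passed between the untreated mutant lines.

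Leaving out each array in turn, the WT response of Ch25h ran from 3.32 to 4.36, its excess over Rela-/-Nfkb2-/- cells from 0.90 to 1.94 and over Rela-/-Relb-/-Rel-/- cells from 1.78 to 2.83. The untreated difference from WT ran from 1.28 to 2.32 for the first and from 1.13 to 2.17 for the second mutant line. Targets past the threshold numbered 0 to 1 (untreated Rela-/-Nfkb2-/- minus WT), 1 to 4 (untreated Rela-/-Relb-/-Rel-/- minus WT) and 1 to 4 (between untreated mutants). Median scaling shifted the median of all features by -0.23 in the WT and -0.28 in the Rela-/-Nfkb2-/- TNF comparison. Of 2452 alternatives for single genes, 2202 had the same outcome, 240 lost a call, 10 gained one and 0 reversed one. The same outcome includes target results that passed in neither setting, so that these counts give no share of calls kept. Listed genes other than the targets entered only where called. A slide block was not run, since the slides are not given here. Ch25h in untreated WT and Idi1 lie near background, which limits their ratios.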
